A study of Pyrus betulifolia with 6 samples.

Results

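The NOD26-like intrinsic proteins (NIPs) are the class of aquaporins that includes the boric acid channels of plants. The 4 NIP genes described here are LOC103962656 and LOC103950753, both described in the deposited annotation as NIP5-1, LOC103944046, described as NIP1-1-like, and LOC125477097, described as NIP6-1-like. They were chosen by name, and all 4 were found among the 37815 genes of the expression table. Expression was measured by RNA-seq in root tips of wild-type P. betulaefolia, a pear rootstock raised from seed. The B deficiency group was kept for 24 h in nutrient solution with 0 mM boron, and the control group received 0.045 mM boron. Each group had 3 libraries labelled as biological replicates. Several plants shared a box, and the paper gives the same number of plants per box as plants harvested per treatment. A whole group may thus come from the same box, and boron level and box could then not be told apart. The sources used here do not say which plants or boxes went into which library, so the independence of the libraries is not known.

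Plants take up boron mainly as boric acid, an uncharged small molecule, and use it as borate to cross-link the pectin rhamnogalacturonan II in the cell wall. In Arabidopsis, NIP5-1 is the channel of the outer root cells through which boric acid enters, and its transcript accumulates when boron is scarce. Exporters of the BOR family then move boron onward to the xylem. The Arabidopsis NIP6-1 channel distributes boric acid to young tissues of the shoot. Arabidopsis NIP1-1 is known for the passage of glycerol and arsenite, so the description of LOC103944046 does not name it as a boric acid channel. All 4 pear genes carry the major intrinsic protein (MIP) domain and the GO term channel activity, which mark them as channels but do not show what they transport.

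NIP5-1 (LOC103962656) rose most of the 4 genes under B deficiency. Its level was 87.0, 110 and 81.5 FPKM in B deficiency libraries 1, 2 and 3, against 16.4, 16.6 and 14.8 FPKM in control libraries 1, 2 and 3. FPKM counts the fragments of a gene per length of its transcript and per total of mapped fragments, so levels of different genes can be set side by side. The groups lay far apart, with 64.8 FPKM between the lowest B deficiency library and the highest control library. The ratio of the group means was 5.83. On the log2(FPKM + 0.1) scale the fold change was 2.53, with a standard error of 0.116 and a 95% interval of 2.25 to 2.80 (adjusted p = 2.57e-05, limma across all genes). The pseudocount of 0.1 draws the fold changes of low genes toward 0. B deficiency library 2 was the highest of the 6 libraries, at 1.31 times the mean of libraries 1 and 3. Without it, the mean of B deficiency was 84.3 FPKM, still 5.29 times the control mean.

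The rise of LOC103962656 was 1 call among many in these root tips. A gene was called when its log2 fold change was 1 or more in either direction and its adjusted p was under 0.05. Of the 4 NIP genes, 1 was called, LOC103962656, while among the 28129 genes tested 8.19% were called, 4.37% higher and 3.83% lower in B deficiency. By log2 fold change it ranked 348th among the rises of all genes tested, and 54th among the 13236 genes whose mean reached 10 FPKM. By the gain in FPKM, 77.0 between the group means, it ranked 192nd. It was above 93.7% of the genes tested by mean level in B deficiency, and above 65.5% of them in the control.

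The second NIP5-1 gene, LOC103950753, moved far less. It had 40.6, 65.8 and 42.4 FPKM in B deficiency libraries 1, 2 and 3, against 32.8, 31.2 and 32.7 FPKM in the control libraries. The lowest B deficiency library was 7.73 FPKM above the highest control library. Such a complete separation upward was seen in 18.5% of all genes tested. The ratio of the means was 1.54, and the log2 fold change was 0.59 (standard error 0.173, 95% interval 0.18 to 0.99, adjusted p = 0.0429 from limma). The adjusted p passed its threshold, but the change was under the minimum fold. The size of the difference rested largely on B deficiency library 2, which was at 1.59 times the mean of libraries 1 and 3. Without that library the ratio of the means was 1.29 and the log2 fold change 0.36 (adjusted p = 0.00178). Over the 15 alternative settings the adjusted p ranged between 0.00178 and 0.135 and was under 0.05 in 8 of them. It was 0.0517 without B deficiency library 3, and 0.106, 0.123 and 0.106 without control libraries 1, 2 and 3.

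**Figure D1:**
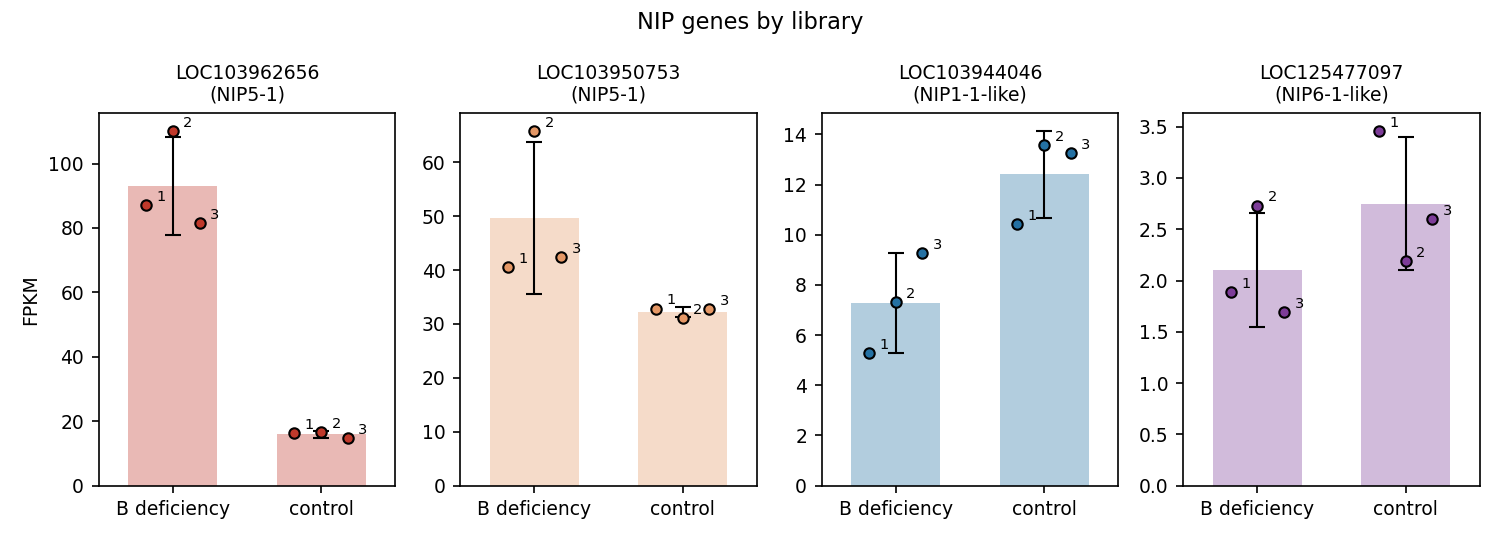
FPKM of each NIP gene by library, with B deficiency on the left and the control on the right of each panel. Points are libraries with their replicate number, bars are group means and error bars are SD (n = 3), and each panel has its own FPKM axis from 0. LOC103962656 lies between 81.5 and 110 FPKM in B deficiency, against 14.8 to 16.6 FPKM in the control, whereas the groups of LOC125477097 overlap.

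LOC103944046, the NIP1-1-like gene, went the other way. It had 5.28, 7.33 and 9.26 FPKM in B deficiency libraries 1, 2 and 3, against 10.4, 13.6 and 13.3 FPKM in control libraries 1, 2 and 3. Every B deficiency library was below every control library, with a gap of 1.16 FPKM, as was the case for 26.6% of all genes tested. The log2 fold change was -0.79 (standard error 0.206, 95% interval -1.27 to -0.30, adjusted p = 0.0284 from limma). The gene thus passed the threshold on p and was not called, since the change was under the minimum fold. With no minimum fold, an adjusted p under 0.05 was reached upward by 12.0% and downward by 15.4% of the genes tested. Its coefficient of variation was 27.3% under B deficiency, against 14.0% in control roots. Under B deficiency that coefficient was 28.4% for LOC103950753, 26.2% for LOC125477097 and 16.4% for LOC103962656. The adjusted p of LOC103944046 was under 0.05 in 10 of 15 alternative settings (range 0.0101 to 0.0994). Without B deficiency library 1 the log2 fold change was -0.58 (adjusted p = 0.0507), and the adjusted p was 0.0984 without control library 2 and 0.0952 without control library 3.

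LOC125477097, the NIP6-1-like gene, was the least expressed of the 4. It had 1.89, 2.73 and 1.69 FPKM in B deficiency libraries 1, 2 and 3, against 3.46, 2.19 and 2.60 FPKM in the control libraries. The groups overlapped, since B deficiency library 2 was above control libraries 2 and 3. The log2 fold change was -0.38 (standard error 0.242, adjusted p = 0.295 from limma). Its 95% interval of -0.94 to 0.19 corresponds to a ratio between 0.520 and 1.14, so that a fall of up to that size or a small rise could not be told from no change with these libraries. At such low FPKM a few fragments weigh more in a value than they do for the NIP5-1 genes.

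**Figure D2:**
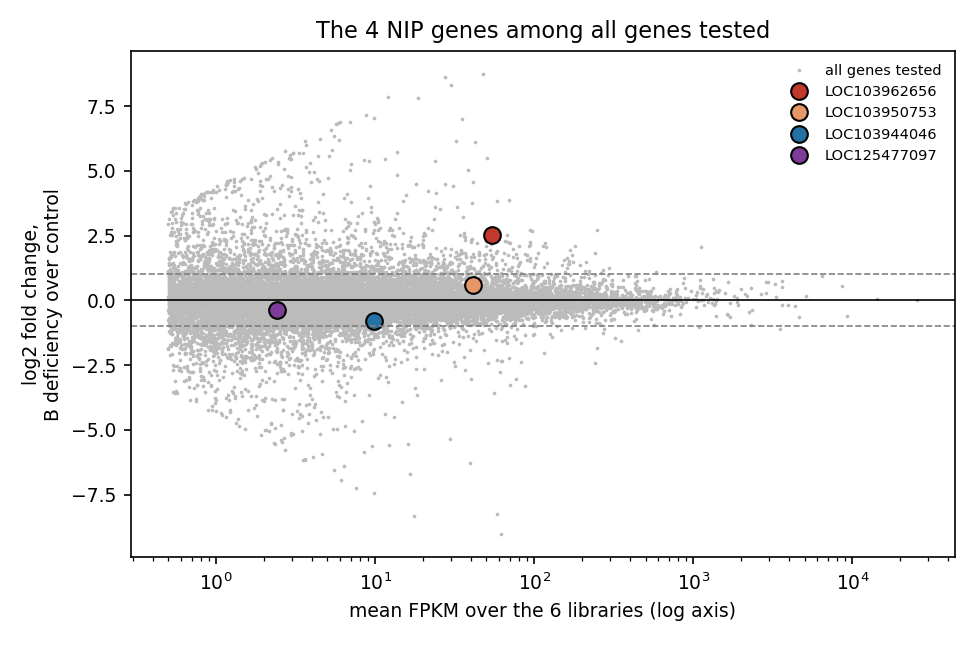
Log2 fold change of B deficiency over control (vertical axis) against mean FPKM over the 6 libraries (horizontal log axis) for the 28129 genes tested, with the 4 NIP genes as large points and dashed lines at the minimum fold. LOC103962656 is the NIP gene outside the dashed lines, at 2.53. LOC103950753 at 0.59, LOC125477097 at -0.38 and LOC103944046 at -0.79 lie between them.

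The order of the 4 genes by level differed between the groups. In B deficiency the order was LOC103962656, LOC103950753, LOC103944046 and LOC125477097, with means of 92.9, 49.6, 7.29 and 2.10 FPKM and SDs of 15.2, 14.1, 1.99 and 0.552 FPKM over 3 libraries. No neighbours in this order overlapped between libraries. In the control, LOC103950753 stood first with 32.2 ± 0.932 FPKM, followed by LOC103962656 with 15.9 ± 1.03, LOC103944046 with 12.4 ± 1.73 and LOC125477097 with 2.75 ± 0.648 FPKM (SD, n = 3). LOC103962656 and LOC103944046 were close in the control, where the ratio of the first to the second within a library was 1.58, 1.23 and 1.11. The same ratio was 16.5, 15.0 and 8.80 in B deficiency libraries 1, 2 and 3.

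The NIP5-1 genes thus exchanged places. Within each library, LOC103962656 was at 2.15, 1.67 and 1.92 times the level of LOC103950753 in B deficiency, against 0.50, 0.534 and 0.451 times its level in the control. On the log2(FPKM + 0.1) scale this ratio was 0.93 ± 0.179 under B deficiency, against -1.01 ± 0.122 in control roots (SD, n = 3), a difference of 1.94. The groups did not overlap, and the exact permutation test over libraries gave p = 0.1, the smallest p that 3 libraries against 3 allow. Over the 6 pairs of NIP genes the adjusted p of this ratio was 0.12. Of the other pairs, 4 also had groups that did not overlap and the same p. LOC103944046 over LOC125477097 differed by -0.41 with overlapping groups (exact p = 0.3). This exact test cannot pass 0.05 with 3 libraries a group, whatever the size of the difference. A value within each library is not affected by scaling between libraries. RSEM, named in the study's methods, divides fragments between similar copies by estimation, but the submitters' processing notes name other software. How fragments were divided between the NIP5-1 copies is thus not known, and the similarity of their transcripts was not examined here.

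The summed level of the 4 NIP genes was 135, 186 and 135 FPKM in B deficiency libraries 1, 2 and 3, against 63.1, 63.5 and 63.3 FPKM in the control libraries. The mean was 152 ± 29.6 FPKM under B deficiency, against 63.3 ± 0.206 FPKM in control roots (SD, n = 3), a ratio of 2.40 (exact permutation test, p = 0.1, the smallest possible). B deficiency library 2 stood well above libraries 1 and 3, while the control libraries were almost equal. Of the net gain of 88.6 FPKM, LOC103962656 supplied 77.0 FPKM or 86.9%, and LOC103950753 supplied 17.4 FPKM or 19.6%. The differences of LOC103944046 and LOC125477097 were negative, at -5.12 and -0.647 FPKM. Without LOC103962656, the other 3 genes summed to 47.7, 75.9 and 53.3 FPKM under B deficiency, against 46.7, 46.9 and 48.6 FPKM in control roots, where B deficiency library 1 lay below control library 3.

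The share of each copy in the sum was then compared. LOC103962656 held 64.6%, 59.2% and 60.4% of the summed NIP FPKM in B deficiency, against 26%, 26.2% and 23.3% in the control, a difference of 36.2 percentage points. LOC103950753 held 30.1%, 35.4% and 31.4% in B deficiency, against 52.0%, 49.0% and 51.6% in the control. Its level was higher and its share lower in B deficiency. LOC103944046 held 3.92%, 3.94% and 6.87% in B deficiency, against 16.5%, 21.3% and 20.9% in the control, and LOC125477097 held 1.37 ± 0.11% under B deficiency, against 4.34 ± 1.04% in control roots (SD, n = 3). In each of these 4 shares the groups did not overlap (exact permutation test, p = 0.1 each, the smallest possible), and since the shares add up to the whole they are not independent of each other. Together the NIP5-1 genes held 93.7 ± 1.59% of the NIP FPKM under B deficiency, against 76.1 ± 1.70% in control roots (SD, n = 3).

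**Figure D3:**
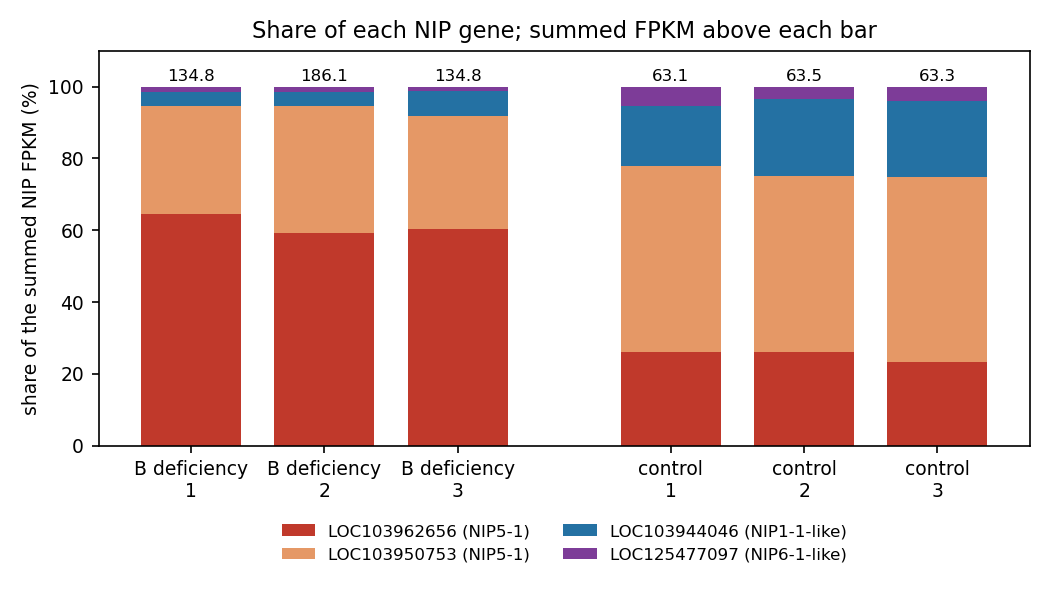
Share of each NIP gene in the summed FPKM of the 4 genes (vertical axis, percent) in each library, with the summed FPKM printed above each bar. LOC103962656 takes between 59.2% and 64.6% in the B deficiency libraries, against 23.3% to 26.2% in the control libraries.

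Another 5 genes of the table are described as NIP or nodulin-26 and are not among these 4. Of them, LOC103964980 (NIP2-1-like), LOC103947029 (NIP-type) and LOC103927184 (nodulin-26-like) were listed at 0 in all 6 libraries. LOC103933082 (NIP2-1-like) had 0.20, 0.26 and 0.59 FPKM in B deficiency, against 0.89, 0.65 and 0.47 FPKM in control roots, with a log2 fold change of -0.84 (limma, adjusted p = 0.221). LOC103943247 (NIP1-1-like) had 0.20, 0.39 and 0.35 FPKM in B deficiency, against 0.65, 0.37 and 0.35 FPKM in control roots, and its mean did not reach the 0.5 FPKM needed for the test. The 4 genes above therefore carried nearly all of the NIP signal in these root tips, since the other 5 together reached at most 0.94 FPKM in a B deficiency library and 1.54 FPKM in a control library.

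Among all channels with the MIP domain, the NIP genes were a small part. The table holds 42 such genes, most of whose signal lies in the plasma membrane (PIP) and tonoplast (TIP) water channels. The 4 NIP genes made up 0.860 ± 0.104% of the summed FPKM of these 42 genes under B deficiency, against 0.340 ± 0.00241% in control roots (SD, n = 3). Of the 13 PIP genes tested, 1 was called higher and 2 were called lower, and of the 9 TIP genes tested 1 was called higher, beside 4.37% called higher and 3.83% called lower over all genes tested. With no minimum fold, 5 PIP genes were higher and 5 lower at an adjusted p under 0.05, as were 3 and 2 of the TIP genes, beside 12.0% and 15.4% over all genes tested. LOC103937540, 1 of the 5 higher PIP genes, is described first as V-type proton ATPase subunit G1-like and then as an aquaporin. LOC125468106, a PIP1-3-like gene, had the largest PIP rise with 1.59, 2.99 and 1.94 FPKM in B deficiency, against 0.21, 0.18 and 0.36 FPKM in control roots (log2 fold change 2.69). LOC103957395 (PIP1-1-like) had the largest PIP fall (-1.09). In the TIP class, LOC103937833 (TIP4-1-like) rose by 2.12 and LOC103930703 (TIP1-3-like) had the lowest value at -0.54. None of the 5 SIP genes tested, small channels of the endoplasmic reticulum in Arabidopsis, was called by limma. At an unadjusted p under 0.05 (limma) there were 3 of the 5, beside 11115 of the 28129 genes tested. The SIP log2 fold changes lay between -0.78 for LOC103938804 and 0.23 for LOC103944428. The median log2 fold change was -0.09 for the PIP, 0.08 for the TIP and -0.14 for the SIP genes, beside -0.05 over all genes tested.

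**Figure D4:**
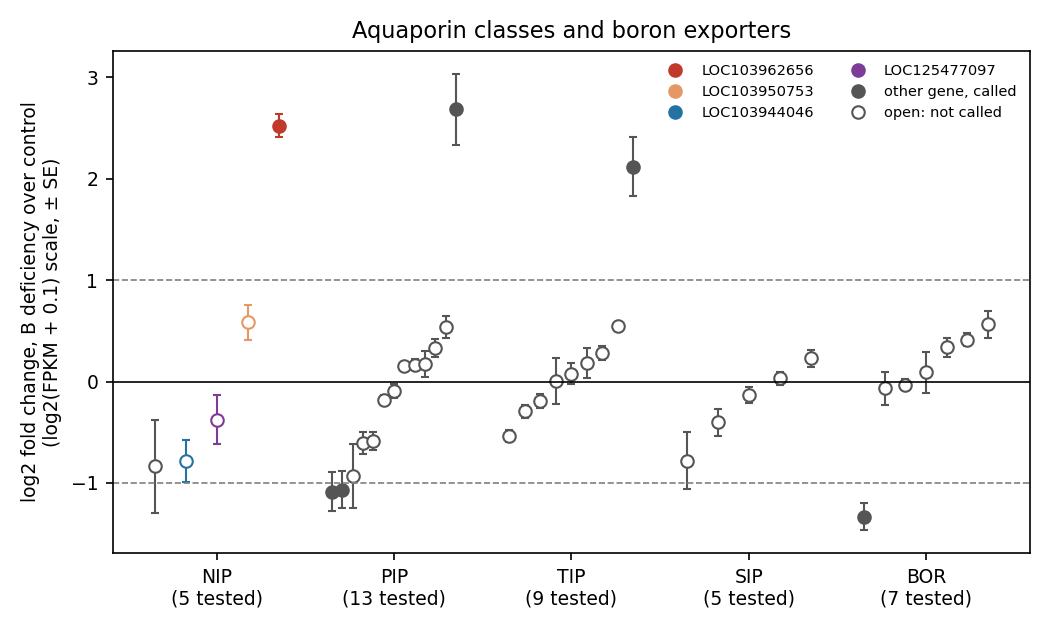
Log2 fold change of B deficiency over control with its standard error for each tested gene of the NIP, PIP, TIP and SIP aquaporins and of the boron exporters (BOR), on the log2(FPKM + 0.1) scale. Filled points were called, and dashed lines mark the minimum fold. LOC103962656 at 2.53, LOC125468106 (PIP) at 2.69 and LOC103937833 (TIP) at 2.12 are the filled points above the upper line.

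The genes known to work with boric acid channels were described from fixed lists. Of the 7 boron exporter genes tested, which in Arabidopsis load boron into the xylem or remove it from cells, 1 was called, LOC103964916 (boron transporter 2), lower at -1.33, beside 8.19% called over all genes tested. Another 3 exporters were higher at an adjusted p under 0.05 (limma), each with all B deficiency libraries above all control libraries and with a change under the minimum fold. Over all genes tested, 12.0% were higher at that adjusted p with no minimum fold, and 18.5% had such a complete separation upward. The 3 exporters were LOC103926570 (boron transporter 4-like) at 0.57, LOC103961247 (boron transporter 2) at 0.41 and LOC125478940 (boron transporter 2) at 0.34. The median of the 7 was 0.09. In LOC103964916 the B deficiency libraries had 6.22, 8.63 and 6.15 FPKM, against 17.6, 17.4 and 17.7 FPKM in the control. NIP5-1 of Arabidopsis is kept at the outer side of root cells through clathrin-dependent endocytosis with the AP-2 adaptor. Of the 14 AP-2 and clathrin genes tested, 1 was called, a share close to the 8.19% over all genes tested. It was the numbered locus novel1318 described as clathrin light chain 1, with 2.18, 1.58 and 2.62 FPKM under B deficiency, against 0.33, 0.66 and 0.98 FPKM in control roots (log2 fold change 1.63). The lowest value of this list was -0.26 for LOC103936540, a clathrin light chain gene, and its median was 0.05.

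Of the 7 genes tested for the synthesis of rhamnogalacturonan II, the pectin that borate cross-links, 1 was called, lower in B deficiency, beside 3.83% called lower over all genes tested. With no minimum fold, 2 of the 7 were lower and 0 higher at an adjusted p under 0.05 (limma), beside 15.4% and 12.0% over all genes tested. At an unadjusted p under 0.05 (limma) there were 5 of the 7, beside 11115 of the 28129 genes tested. LOC103953328, described as 2-dehydro-3-deoxyphosphooctonate aldolase-like, an enzyme of the route to the sugar KDO, had 2.59, 2.07 and 1.83 FPKM in B deficiency, against 9.86, 6.28 and 7.93 FPKM in control roots (log2 fold change -1.83, adjusted p = 0.000744 from limma). The largest value was 0.30 for LOC103947625, the CMP-KDO synthetase that activates this sugar, and the median of the list was -0.06. No description matched the patterns for WRKY6 or WRKY47, factors tied to low boron in Arabidopsis and rapeseed. The match was on names only, so it does not show that such genes are absent. The paper reports other WRKY entries as up-regulated under B deficiency.

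The genes whose pattern was most like that of LOC103962656 were ranked by Pearson r over the 6 libraries on the log2(FPKM + 0.1) scale, among 18310 genes whose mean reached 5 FPKM. LOC103931823 (hypothetical protein), LOC125471916 (RING-type E3 ubiquitin transferase), the numbered locus novel3147 (Lipase 3 domain), LOC125467819 (alpha-galactosidase-like) and LOC103965056 (chalcone synthase) came first, each with r above 0.95. LOC125471916 had 23.5, 30.4 and 23.1 FPKM under B deficiency, against 4.06, 4.24 and 3.90 FPKM in control roots, and novel3147 had 62.2, 81.7 and 57.2 FPKM under B deficiency, against 13.6, 13.5 and 12.1 FPKM in control roots. Both were highest in B deficiency library 2, as LOC103962656 was. The measure does not depend on the size of the change, and LOC103965056 had a log2 fold change of 0.31. With 2 groups that lie apart, r mostly reflects the group difference, and 1145 genes reached 0.95.

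The libraries and the tissue label were checked for features that move with these results. Across genes, B deficiency library 2 correlated with libraries 1 and 3 of its group at r between 0.959 and 0.962, whereas the remaining pairs within a group were between 0.975 and 0.976. Of the root cap regulators SOMBRERO and BEARSKIN2, 4 of 4 genes were lower in every B deficiency library than in every control library, which held for 26.6% of all genes tested. Of these 4, 3 were lower at an adjusted p under 0.05 and 1 was called lower, beside 15.4% and 3.83% over all genes tested. Their summed level was 17.95 to 24.6 FPKM under B deficiency, against 34.1 to 35.7 FPKM in control roots. Regulators of the root meristem (10 tested, 0 called by limma, 2 lower at an adjusted p under 0.05 and 4 at an unadjusted p under 0.05) summed to 82.1 to 90.8 FPKM under B deficiency, against 92.2 to 95.1 FPKM in control roots. Over all genes tested, 15.4% were lower at an adjusted p under 0.05, and 11115 of 28129 had an unadjusted p under 0.05 (limma). Genes of the ROOT HAIR DEFECTIVE 3 type (7 tested, 1 called lower, 2 lower at an adjusted p under 0.05, beside 3.83% and 15.4% over all genes tested) summed to 153 to 190 FPKM under B deficiency, against 202 to 205 FPKM in control roots. These 7 genes were matched by name and are not taken here as markers of root hair cells. The 2 genes for XCP1-like xylem cysteine proteases summed to 56.9 to 79.0 FPKM under B deficiency, against 87.6 to 91.6 FPKM in control roots. Of these 2, 0 were called and 0 had an adjusted p under 0.05 (limma), beside 8.19% and 27.3% over all genes tested. The groups overlapped in LOC103926697, with 12.6, 7.72 and 11.9 FPKM in B deficiency, against 10.3, 12.9 and 11.4 FPKM in control roots. No description matched the endodermis pattern. Of the 36 genes for RuBisCO small subunits and chlorophyll a-b binding proteins, 11 were tested and 1 was called lower, beside 3.83% over all genes tested. The sum of the 36 was 580 to 640 FPKM under B deficiency, against 575 to 610 FPKM in control roots, most of it from the RuBisCO small subunit gene LOC103928816. The part of the genes of these lists in the NIP results was not tested, and in whole root tips a change in the share of cells that express a NIP gene and a change in its level per cell cannot be told apart.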

How the data were processed

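Root tip RNA-seq libraries of P. betulaefolia (3 B deficiency, 3 control) were grouped and numbered from the titles in the labels. The authors deposited FPKM values for 37815 genes, rounded to 2 decimals, in 2 tables with identical library columns, 1 of them with descriptions and domains added. By the study's methods, reads were filtered, mapped to the genome of P. bretschneideri (STAR) and quantified with RSEM. The submitters' processing notes instead name HISAT2, Cufflinks 2.2.1, DESeq2 and mouse genome builds, and this difference could not be settled. No annotation release is named in the sources used here. The annotated table also holds 4 columns of the authors' own means and ratios, which were not used. Columns of single libraries assigned to no sample numbered 0.

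FPKM values are not counts, so the study's count test was replaced by limma 3.58.1 (R 4.3.3, lmFit and eBayes with a trend) on log2(FPKM + 0.1), B deficiency minus control, and p-values were adjusted by Benjamini-Hochberg over 28129 genes whose mean reached 0.5 FPKM. Sums, shares and ratios were compared with 2-sided exact permutation tests over libraries, which cannot go below p = 0.1. The limma step was first tested on simulated data. The simulated noise was the same in all libraries, with no deviating library, so this test does not show how the step performs on these data. Steps in low FPKM values put the depth of the other libraries at 1.00 to 1.13 times that of B deficiency library 1. This is a rough estimate from 7 to 18 genes per library, in which only ratios near 1 were kept. The mapped totals in the paper instead place control libraries 1 and 2 below B deficiency library 1. The deposited tables hold no fragment counts per gene, so no counting interval is given. P-values measure the spread between these libraries only.

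Gene lists were matched on descriptions. Named genes are the 4 NIP genes, all other genes described as NIP or nodulin-26, in each list of related genes the largest rise and the largest fall, and the 5 genes most correlated with LOC103962656. The members, lists and settings were chosen with earlier results of these data known. Alternatives were other pseudocounts (1 and 0.01), other minimum FPKM values (none and 1), scaling by median of ratios, quantile normalization, eBayes with no trend, array weights, a block for the replicate number, 1 library left out at a time and, for the count of calls, no minimum fold. Figures used Python 3.11.15 and matplotlib 3.10.9. No sequences were used here.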

Additional observations from a re-analysis of the deposited data

How the results depend on the processing

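Of the 4 NIP genes, LOC103962656 was called in all 15 alternative settings, with a log2 fold change between 2.40 and 2.61, and none of the other 3 genes was called in any. With a library left out in turn, the log2 fold change was 2.40 to 2.61 for LOC103962656, 0.36 to 0.71 for LOC103950753, -0.98 to -0.58 for LOC103944046 and -0.57 to -0.20 for LOC125477097. The difference in summed FPKM was 71.5 to 97.1. No direction turned in any setting. With an adjusted p under 0.05 and no minimum fold, 7693 genes passed, against 2305 called genes, and with a library left out between 1914 and 2532 genes were called. At the same thresholds, 1560 genes were called on log2(FPKM + 1) and 2604 with array weights, the lowest and highest counts of the alternative fits. The share called over all genes tested thus depends on these settings. The same-numbered libraries did not deviate together from their group means (correlations of 0.0403, 0.0349 and -0.00477), so the numbers were not taken as pairs. With the replicate number as a block, 2176 genes were called, the log2 fold changes were the same, and the adjusted p was 0.000349 for LOC103962656 and 0.0528 for LOC103950753. The sum and the shares then had the smallest p that 3 pairs allow, 0.25 (exact sign-flip test).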

Other observations

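B deficiency library 2 was the highest of its group in 3 of the 4 NIP genes, LOC103962656, LOC103950753 and LOC125477097. It was also the highest in 22 of the 28 other tested genes with the MIP domain, or 78.6%, against 39.2% of all genes tested. In these 28 genes the median log2 ratio of library 2 to libraries 1 and 3 was 0.20, and over all genes tested it was -0.00. LOC103944046 did not share this, with 7.33 FPKM in library 2 between 5.28 and 9.26 FPKM in libraries 1 and 3. PIP genes summed to 9368 FPKM in library 2, against 8460 and 8490 FPKM in libraries 1 and 3, and TIP genes to 9263 FPKM, against 8103 and 8120 FPKM. The part of this library's state in the values of LOC103950753 was not tested.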
